A study of Mus musculus with 9 samples.

Results

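The comparison set NDRG1-eGFP cells, which the labels call myelinating oligodendrocytes, against PDGFRa-GFP cells, which the labels call oligodendrocyte progenitors. Its members were the 3 libraries of each group, 6 of the 9 libraries of the series, and 11314 of the 11315 genes in the files, joined by symbol. Both groups were primary cells taken by fluorescence sorting from the brains of C57BL/6 mice at postnatal day 60, one for the PDGFRa::GFP reporter and the other for the NDRG1-eGFP reporter. Nothing in the labels says whether replicates came from separate animals, or how the reporter alleles were built, so the p-values cover no more than the spread among the libraries at hand. Sequencing was of RNA taken from the same cell pellets as DNA. Each library had 1 normalized log2 value per gene, and no read counts were used, so depth is unknown.

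Oligodendrocytes wrap axons in myelin, a membrane rich in cholesterol and in a few very abundant proteins such as myelin basic protein. They arise from progenitors that carry the PDGF receptor alpha and the proteoglycan NG2, pass through a newly formed stage, and then switch on myelin genes under transcription factors such as Myrf and Sox10. Ndrg1 encodes a protein of the N-myc downstream regulated family that is known from differentiated and stressed cells, and in the brain it is found in oligodendrocytes.

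In the fit of all 6 libraries neither reporter gene, Pdgfra or Ndrg1, passed the test, and no progenitor marker did. Without PDGFRa-GFP replicate 3, which stands apart as described further on, 6 of the 20 progenitor markers were lower in NDRG1-eGFP cells and 1 was higher. In that fit 1498 of all 11298 genes tested were lower and 2104 were higher. Pdgfra, the progenitor receptor, stood at 6.87, 7.54 and 5.47 in PDGFRa-GFP replicates 1, 2 and 3 and at 5.85, 4.98 and 6.26 in NDRG1-eGFP replicates 1, 2 and 3, on a log2 scale where the median gene lies at 10.57. The groups overlapped, with a log2 fold change (NDRG1-eGFP minus PDGFRa-GFP) of -0.93 ± 0.67 (SE of the limma fit, n = 3 per group; adjusted p = 0.384). The sorted values are nearly the same in every library, so a gene at the same rank in each can show little difference. Ndrg1 stood at 16.86, 16.79 and 16.75 in PDGFRa-GFP cells and at 16.98, 17.05 and 16.94 in NDRG1-eGFP cells (0.19, adjusted p = 0.361), again among the abundant genes of both groups.

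Of 20 measured progenitor markers none was called (limma, adjusted p under 0.05), and their median log2 fold change was -0.56, with 6 of the 20 above 0. The proteoglycan gene Vcan came close, with 7.41, 8.87 and 5.27 in PDGFRa-GFP cells and 5.21, 2.05 and 2.18 in NDRG1-eGFP cells (-4.04 ± 1.19, adjusted p = 0.0682). It passed without PDGFRa-GFP replicate 3 (-4.99, adjusted p = 0.0141). Olig1, a transcription factor of the whole lineage, was level in both groups, from 16.68 to 16.89. The progenitor list made up 2450 to 3030 ppm of the summed linear values in the PDGFRa-GFP group and 2860 to 3000 ppm in the NDRG1-eGFP group. Such a sum rests mostly on the most abundant members and says little of the others. The median progenitor marker stood at 7.9, 8.86 and 7.25 in PDGFRa-GFP cells and at 7.3, 7.72 and 7.49 in NDRG1-eGFP cells. The 30 myelin and sheath genes summed to 132000 to 157000 and to 163000 to 167000 ppm. The data therefore go against reading the PDGFRa-GFP libraries as progenitors only, since myelin transcripts were abundant in both groups. Groups are named by their reporters below.

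Of the myelin and sheath genes without copies, 1 was higher and 1 lower. Cldn14, a claudin, stood at 9.95, 10.37 and 9.54 in PDGFRa-GFP cells and at 11.85, 11.03 and 11.33 in NDRG1-eGFP cells (1.45 ± 0.28, adjusted p = 0.0169). Cldn11, the claudin that forms the tight junctions of myelin, went the other way, from 16.03, 16.24 and 16.63 to 15.60, 14.95 and 15.12 (-1.08 ± 0.22, adjusted p = 0.0195). The call of Cldn14 was lost without PDGFRa-GFP replicate 1 or NDRG1-eGFP replicate 1 or 3, and with the trend on transcript length removed (1.16, adjusted p = 0.0752), so that no myelin gene was then higher. The call of Cldn11 was lost without PDGFRa-GFP replicate 2 or NDRG1-eGFP replicate 2 or 3. Without PDGFRa-GFP replicate 3 the list had 6 higher and 3 lower members, where 2063 and 1050 of all genes without copies were called. Mog, a protein of the outer myelin surface, had 17.52, 17.59 and 17.76 against 18.12, 18.00 and 17.94, which did not pass the test (0.40 ± 0.15, adjusted p = 0.119). Myrf, the myelin gene regulator, had 15.84, 15.69 and 15.11 against 14.78, 14.77 and 15.01 (-0.69 ± 0.20, adjusted p = 0.0667).

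**Figure D1:**
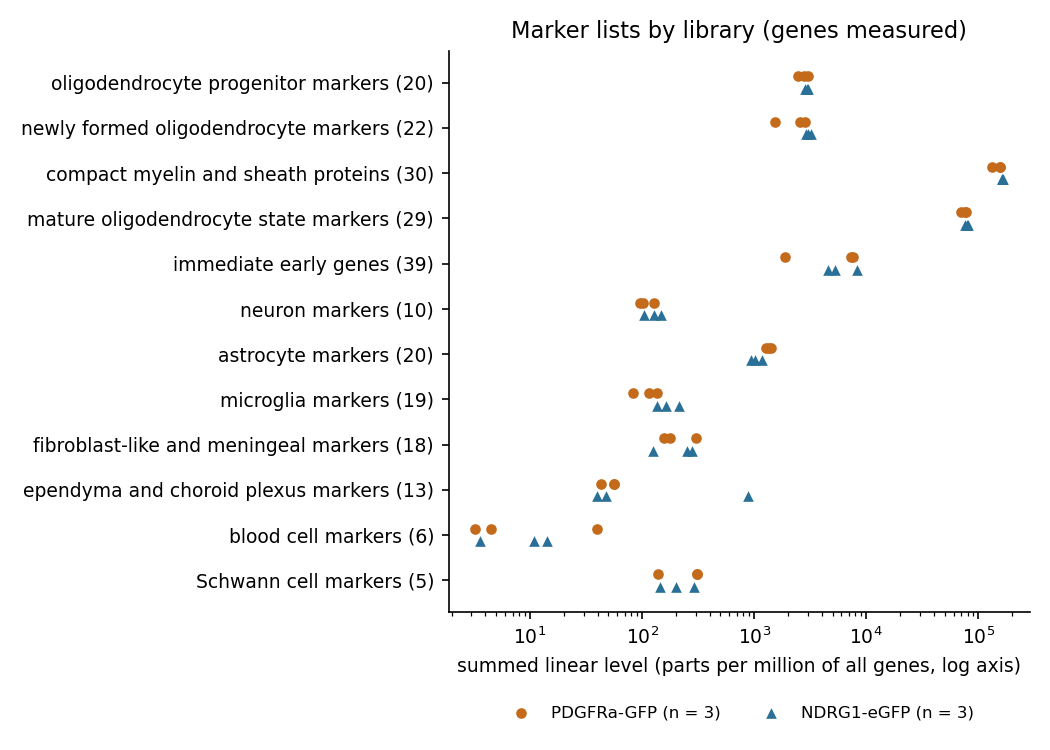
Summed linear level of each marker list without near-identical copies (ppm of all genes, log axis), with 1 point per library, PDGFRa-GFP as circles and NDRG1-eGFP as triangles. Sums rest mostly on the most abundant members of a list. The sums of the progenitor and of the myelin list lie close together between the groups. Immediate early genes are low in 1 PDGFRa-GFP library at 1900, and ependymal markers reach 886 in 1 NDRG1-eGFP library.

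PDGFRa-GFP replicate 3 stood apart. Pearson correlations over all genes were 0.982 between PDGFRa-GFP replicates 1 and 2, and 0.935 and 0.931 between replicate 3 and those. NDRG1-eGFP replicates correlated at 0.939 to 0.964, and libraries of different groups at 0.881 to 0.925. In PDGFRa-GFP replicate 3 the immediate early genes, which respond quickly to stimulation, summed to 1900 ppm against 7310 and 7650 in its group and a range of 4520 to 8220 in NDRG1-eGFP cells. None of the 39 was called, and without that library 1 was higher and 2 were lower. Ddx3y, on the Y chromosome, stood at 9.26, 12.43 and 0.32 in PDGFRa-GFP cells and at 8.64, 1.82 and 7.33 in NDRG1-eGFP cells, low in replicate 3 of the first group and replicate 2 of the second. The part of these library differences in the results was not tested.

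Over all 11314 genes, 318 (2.81%) had a higher level in NDRG1-eGFP cells and 724 (6.4%) a lower one, 9.21% in either direction. Recentring on the median ratio turned this into 155 higher and 866 lower. A share of genes has transcript sequence that also occurs at another place in the genome, such as a pseudogene or a paralog, so that short reads may be assigned to either locus or discarded. These were kept apart: a gene counted as having near-identical copies when over 5% of its 50-base transcript windows occurred at another locus that does not overlap it. The 999 genes with copies and the 10315 without behaved differently. Among genes with copies, 10 (1.0%) were higher and 371 (37.1%) lower, 38.1% in all, with a median log2 fold change of -0.58. Among genes without copies, 308 (2.99%) were higher and 353 (3.42%) lower, 6.41% in all, with a median of 0.17. Genes with copies were thus 51.2% of all lower calls.

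The share of lower calls was larger in genes with more copied sequence, up to the class above 50%. Of 6558 genes with no shared window, 3.08% were lower, and of 3714 with up to 5%, 3.93%. Between 5% and 20% it was 27.4% of 667 genes, between 20% and 50% it was 57.7% of 248, and above 50% it was 53.6% of 84. The medians of the log2 fold change over these 5 classes were 0.21, 0.12, -0.35, -1.29 and -1.54. Where the locus sharing the most windows was a pseudogene, 295 of 664 genes (44.4%) were lower, and where it was a protein-coding gene, 72 of 303 (23.8%). Raw reads were not used, so a change of RNA and a change in how reads were assigned cannot be told apart for these genes, and their values are uncertain.

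**Figure D2:**
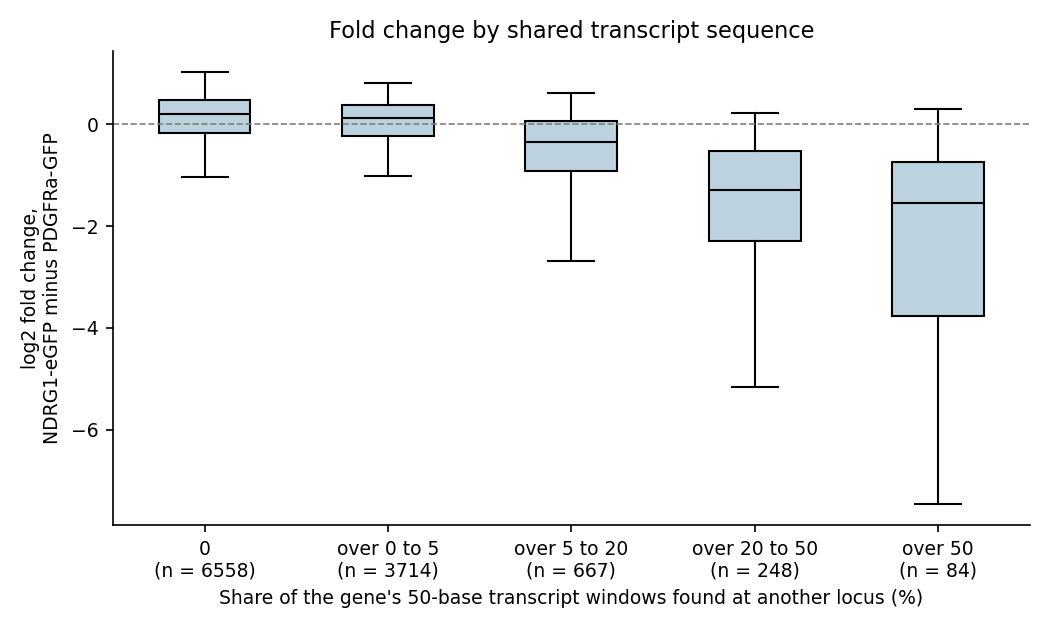
Log2 fold change (NDRG1-eGFP minus PDGFRa-GFP) of all annotated genes, grouped by the percent of their 50-base transcript windows that occur at another locus. Boxes give the quartiles and median, and whiskers run from the 5th to the 95th percentile. Medians move from 0.21 for genes with no shared window to -1.54 for those above 50%.

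Sequences of 3 pairs show what such copies look like, in coding sequence from GENCODE M21 on GRCm38. Mitochondrial cytochrome oxidase subunit 2, mt-Co2 (chrM:7013-7696), has the pseudogene Gm28661 on chromosome 1 (chr1:24614885-24615565, minus strand), identical over all 681 coding bases, and the first 60 are printed. The alpha globin genes Hba-a1 (chr11:32283511-32284465) and Hba-a2 (chr11:32296489-32297298) differ at 1 of 426 coding bases. The alpha tubulin genes Tuba1a (chr15:98949837-98953703) and Tuba1b (chr15:98931425-98934565) differ at 23 of 1353. Capitals mark the bases that differ, in the 60-base window with the most differences.
mt-Co2: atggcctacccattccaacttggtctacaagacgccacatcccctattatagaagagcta
Gm28661: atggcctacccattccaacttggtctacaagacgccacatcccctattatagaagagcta
Hba-a1: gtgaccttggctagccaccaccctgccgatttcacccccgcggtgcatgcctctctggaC
Hba-a2: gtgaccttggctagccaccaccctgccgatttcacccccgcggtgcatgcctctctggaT
Tuba1a: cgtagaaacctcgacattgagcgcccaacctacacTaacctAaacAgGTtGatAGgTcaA
Tuba1b: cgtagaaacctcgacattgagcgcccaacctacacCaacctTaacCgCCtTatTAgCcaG

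Mitochondrially encoded genes, the subunits of the respiratory chain made inside the organelle, split in part along this line. mt-Co2 stood at 13.18, 13.85 and 14.56 in PDGFRa-GFP cells and at 4.22, 4.86 and 5.05 in NDRG1-eGFP cells, a log2 fold change of -9.15 ± 0.38 (adjusted p = 6.25e-06). mt-Atp6, a subunit of ATP synthase with 99.5% of its windows copied, went from 13.53, 14.03 and 15.09 to 5.11, 6.46 and 5.85 (-8.41 ± 0.45). mt-Co3, with 99.9% copied, went from 13.13, 13.73 and 15.17 to 6.02, 6.75 and 6.92 (-7.45 ± 0.49). The groups lay far apart for all 3 genes. mt-Nd4l, with 98.8% copied, lay at 1.42, 1.17 and 0.85 in NDRG1-eGFP cells against 8.74, 9.23 and 9.18.

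Not all mitochondrial genes went the same way. mt-Cytb, the cytochrome b gene with no copied window, stood at 17.66, 18.12 and 18.21 in PDGFRa-GFP cells and at 17.70, 17.70 and 18.21 in NDRG1-eGFP cells (-0.12, adjusted p = 0.727). mt-Nd1, also without copies, did not pass the test either (-0.24, adjusted p = 0.626). Of 4 mitochondrial genes without copies, only mt-Atp8 was called, with 10.55, 11.02 and 12.26 in PDGFRa-GFP cells and 1.80, 2.46 and 1.84 in NDRG1-eGFP cells. It lies between mt-Co2 and mt-Atp6 and overlaps the latter, whose copies Gm28661 and Gm10925 are neighbours on chromosome 1, and the stretch between those copies holds no annotated transcript. Copies were sought in annotated transcripts only, and mt-Atp8 was not compared with that stretch. Of the 9 genes with copies 6 were lower, and mt-Nd2, mt-Nd5 and mt-Nd4 were not called. For mt-Nd4, 62.2% of windows were copied, and its copy Gm28439 matched it over 876 bases with 0 differences. The log2 fold change of mt-Nd4 was -0.09 (adjusted p = 0.825). mt-Co1 (51.1% copied) was lower by less (-1.25 ± 0.27, adjusted p = 0.0250), with the call lost in 4 of the 6 leave-one-out fits.

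**Figure D3:**
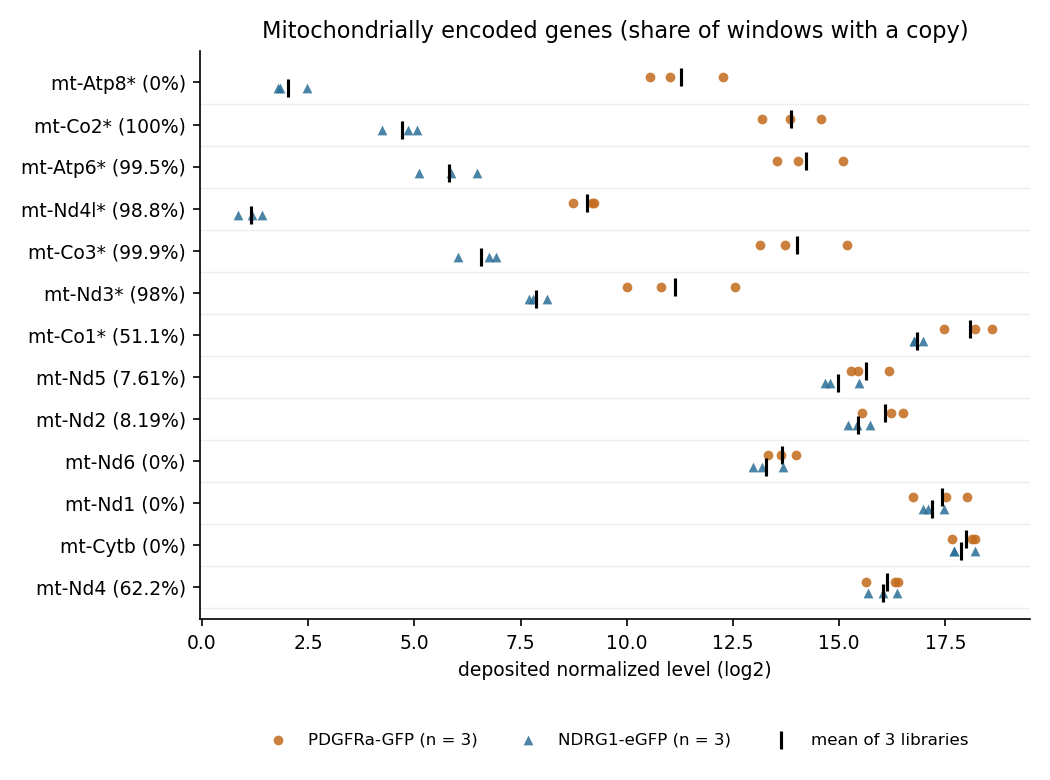
Deposited log2 level of the 13 mitochondrially encoded genes in each library, PDGFRa-GFP as circles and NDRG1-eGFP as triangles, with black bars for group means, ordered by fold change. The percentage is the share of windows with a copy, and an asterisk marks an adjusted p under 0.05. mt-Co2 and mt-Atp6 lie far to the left in NDRG1-eGFP cells while mt-Cytb and mt-Nd4 overlap.

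Cytosolic ribosomal proteins, a family known for its many processed pseudogenes, had the most members of this kind among the families examined. Of 80 measured, 75 had copies, and 67 of these were lower and none higher, with a median log2 fold change of -2.99. Their median level was 11.44, 11.74 and 12.34 in PDGFRa-GFP replicates 1 to 3 and 8.54, 8.41 and 8.74 in NDRG1-eGFP replicates. In the 3 libraries of the series not compared here it was 11.28, 10.77 and 10.89, so the NDRG1-eGFP libraries were the low ones. Rpl24, of the large subunit, had 11.91, 12.25 and 12.65 against 4.32, 4.76 and 5.35 (-7.46 ± 0.34), and Rps23, of the small subunit, had 11.47, 11.88 and 13.01 against 4.57, 4.86 and 4.77 (-7.39 ± 0.40). Rps3, with 1.17% of windows copied, did not pass the test (-0.15). Among the 5 ribosomal proteins without copies by the threshold, Rps24 was lower (-1.98 ± 0.28, adjusted p = 0.00345), with 4.86% of windows copied, just under it.

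Other abundant housekeeping genes with copies were lower too. Ubb, a polyubiquitin gene (48.0% of windows copied), stood at 14.86, 15.03 and 14.84 in PDGFRa-GFP cells and at 7.32, 6.60 and 7.57 in NDRG1-eGFP cells. Tuba1b was at 9.71, 9.46 and 10.79 against 1.55, 2.46 and 2.18, while its near twin Tuba1a, printed above, was at 13.77, 13.89 and 14.68 against 12.03, 11.83 and 11.56 (-2.30 ± 0.25). Gapdh, the glycolytic enzyme often used as a reference gene, had a log2 fold change of -3.76 ± 0.15, and the cyclophilin gene Ppia one of -5.05 ± 0.22. Of 9 glycolysis genes with copies 5 were lower, and of the 17 without copies none was called, with a median of 0.35.

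Globins gave the sharpest contrast within a pair. Hba-a1 stood at 8.59, 9.86 and 12.95 in PDGFRa-GFP cells and at 0.35, 1.17 and 0.32 in NDRG1-eGFP cells, which is the bottom of the scale. Hba-a2, which differs from it by the 1 coding base shown, stood at 6.96, 7.88 and 11.53 against 9.79, 7.57 and 10.32 and was not called (0.43 ± 1.14, adjusted p = 0.824). Alas2, the erythroid enzyme of heme synthesis and free of copies, overlapped between groups as well (-1.20 ± 1.18, adjusted p = 0.525).

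Of the 10 genes with copies that were higher, Lyz2, the lysozyme of macrophages and microglia, was at 7.33, 6.95 and 7.55 in PDGFRa-GFP cells and at 11.22, 10.82 and 10.21 in NDRG1-eGFP cells (3.48 ± 0.31, adjusted p = 2.57e-04, 15.4% copied). Acy3, an aminoacylase, was at 9.62, 9.61 and 9.64 against 11.37, 10.78 and 10.94 (1.41 ± 0.20, 5.67% copied). Both calls were kept in all 6 leave-one-out fits. The other 2 higher genes with copies that the naming rule gave, Wdr53 (0.95 ± 0.25) and Xpnpep1 (0.62 ± 0.15), each lost their call in 5 of them. In all, 5 of the 10 higher and 229 of the 371 lower calls among genes with copies were kept.

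The comparisons that follow are of genes without copies. Here the counts rested on single libraries. The 308 higher and 353 lower calls became 53 and 143 without PDGFRa-GFP replicate 1, 52 and 161 without its replicate 2, and 2063 and 1050 without its replicate 3. They became 24 and 173 without NDRG1-eGFP replicate 1, 50 and 113 without its replicate 2, and 33 and 144 without its replicate 3. No named gene that was called changed direction in them, and 12 higher and 90 lower genes kept their call in all 6. A gene said below to have held is one of these. Genes named beyond the naming rule were chosen after their values were seen. Counts for lists below stand beside 2.99% higher and 3.42% lower over all genes without copies in the fit of all 6 libraries. In the other fits they stand beside the counts just given.

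Higher genes were short and lower genes long. The median transcript length was 2316 bases for the higher calls, 5018 for the lower calls and 3632 for all genes without copies. Across 5 equal groups of all genes by transcript length the median log2 fold change ran from 0.32 in the shortest to -0.25 in the longest. With each library's trend on length removed, the genes without copies gave 132 higher and 313 lower, and 74 and 244 of the earlier calls were still called.

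Cholesterol synthesis was the metabolic pathway with the most higher members. It builds the sterol that makes up much of the myelin membrane. Of 20 measured genes without copies, 6 were higher and none lower, beside 2.99% and 3.42% of all genes without copies. The median log2 fold change of the 20 was 0.63, beside 0.17 for all genes without copies. Sqle, the squalene epoxidase of the pathway, stood at 13.39, 13.18 and 13.49 in PDGFRa-GFP cells and at 14.64, 14.18 and 14.46 in NDRG1-eGFP cells (1.07 ± 0.16, adjusted p = 0.00534). Sc5d, a sterol desaturase of the last steps, stood at 14.10, 13.97 and 13.93 against 14.99, 14.75 and 14.75 (0.83 ± 0.14, adjusted p = 0.00823). Both held, and the groups did not overlap for either gene.

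The 4 further enzymes were Hmgcs1, at the start of the pathway (0.92 ± 0.18), Mvd, the mevalonate diphosphate decarboxylase (1.17 ± 0.23), Cyp51, which demethylates lanosterol (0.81 ± 0.17), and Nsdhl, a sterol dehydrogenase (0.84 ± 0.20). These did not hold. The list had 3 higher members without PDGFRa-GFP replicate 1, 2 without its replicate 2 and 11 without its replicate 3, and 3, 5 and 2 without NDRG1-eGFP replicates 1, 2 and 3. Removing the length trend left 4 of the 6, without Mvd (0.87, adjusted p = 0.0555) and Nsdhl, and a median of 0.43. Srebf2, the transcription factor that drives the pathway, did not pass the test (0.01, adjusted p = 0.975). Abca1, which exports cholesterol from cells, was lower, at 11.86, 12.13 and 11.97 against 10.15, 10.51 and 10.62 (-1.56 ± 0.18, adjusted p = 0.00122), and held.

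**Figure D4:**
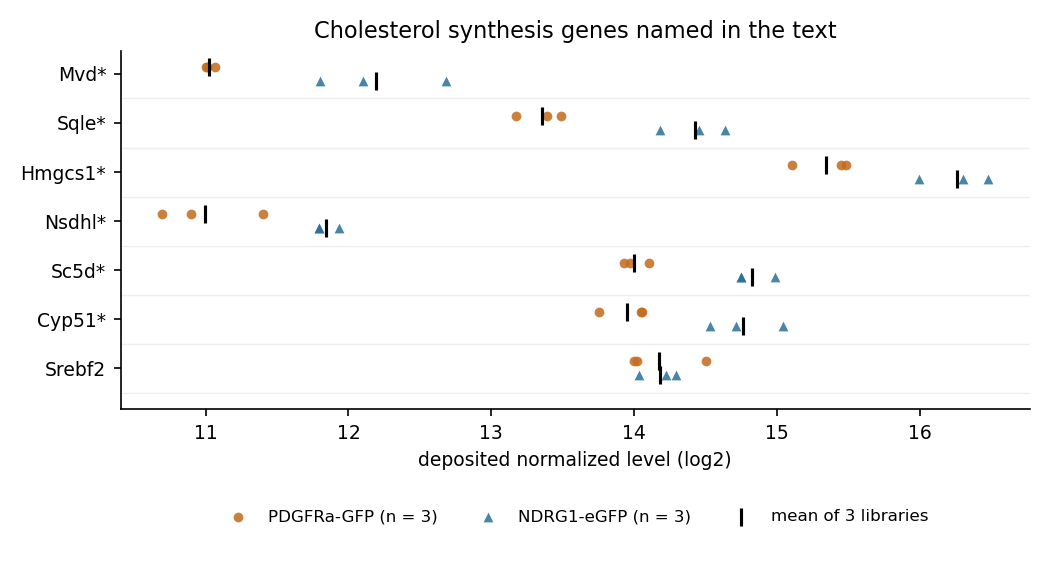
Deposited log2 level of the called cholesterol synthesis genes and Srebf2 in each library, PDGFRa-GFP as circles and NDRG1-eGFP as triangles, with black bars for group means, ordered by fold change. An asterisk marks an adjusted p under 0.05. Sqle and Sc5d are separated between the groups and Srebf2 overlaps.

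Since members of the pathway share a known regulator, the 250 bases before the RefSeq start of 2 called enzymes are shown, from RefSeq on GRCm38.p6. Capitals mark, on either strand, the sterol response element TCACCCCAC, the CCAAT box CCAAT and the GC box GGGCGG, which do not overlap each other here. Of 19 measured pathway genes with an entry, those with copies included, the first was found in 1, the second in 17 and the third in 17. Among 32851 promoter windows of the same length, 0.496%, 33.8% and 32.7% held them. A pathway gene counted when any of its windows held the letters, so the counts by gene and the shares of windows are unlike measures. A match is a run of letters and not a measured binding site. Hmgcs1 lies at chr13:119690101-119690350 on the plus strand and Sc5d at chr9:42264301-42264550 on the minus strand.
Hmgcs1: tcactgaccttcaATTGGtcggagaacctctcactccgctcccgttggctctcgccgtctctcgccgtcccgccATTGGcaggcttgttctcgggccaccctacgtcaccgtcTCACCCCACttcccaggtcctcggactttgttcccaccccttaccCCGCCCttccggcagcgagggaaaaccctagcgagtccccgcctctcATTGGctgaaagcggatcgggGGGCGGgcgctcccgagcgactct
Sc5d: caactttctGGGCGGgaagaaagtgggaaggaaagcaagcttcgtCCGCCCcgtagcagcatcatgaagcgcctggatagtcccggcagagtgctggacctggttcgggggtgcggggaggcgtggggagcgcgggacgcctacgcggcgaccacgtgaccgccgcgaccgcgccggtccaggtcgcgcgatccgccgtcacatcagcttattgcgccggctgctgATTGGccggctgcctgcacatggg

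Other lipid and metabolic genes were called singly. Elovl1, which elongates the very long fatty acids of myelin sphingolipids, stood at 14.30, 14.37 and 14.50 in PDGFRa-GFP cells and at 15.51, 15.36 and 15.22 in NDRG1-eGFP cells (0.97 ± 0.14, adjusted p = 0.00367), and held. It was the 1 higher gene of 26 in fatty acid and sphingolipid synthesis, and Srebf1, a transcription factor of fatty acid synthesis, was the 1 lower (-0.71 ± 0.14, lost in 4 of the 6 fits). Without PDGFRa-GFP replicate 3 the list had 9 higher members. Gamt, the last enzyme of creatine synthesis, was at 13.61, 13.86 and 13.88 against 14.77, 14.77 and 14.52 (0.90 ± 0.15, adjusted p = 0.00749). Acot7, an acyl-CoA thioesterase, was at 14.87, 14.95 and 14.92 against 15.79, 15.64 and 15.62 (0.77 ± 0.13, adjusted p = 0.00824), but with the length trend removed its log2 fold change was 0.47 (adjusted p = 0.0962). Of the 18 tricarboxylic acid cycle genes and the 63 mitochondrial ribosomal proteins without copies, none was called in either direction. Once PDGFRa-GFP replicate 3 was left out 9 and 31 of them were higher, as were 2063 of all genes without copies. With the length trend removed as well, 1 and 4 of them were higher, and 561 of all genes without copies.

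Markers of mature oligodendrocyte states had 3 of 29 members higher and none lower, with a median of 0.21. Over all genes without copies 2.99% were higher and 3.42% lower. The higher markers were Anxa5, an annexin (0.89 ± 0.17), Gsn, the actin-severing gelsolin (0.76 ± 0.20), and Pmp22 (0.61 ± 0.16). None held, and with the length trend removed none was called. The count was 0 without PDGFRa-GFP replicate 2, or without NDRG1-eGFP replicate 1 or 3. Klk6, a protease of mature oligodendrocytes, was at 14.42, 14.64 and 13.96 against 15.52, 14.80 and 15.74, and did not pass (1.01 ± 0.27, adjusted p = 0.0503). Of 22 markers of newly formed oligodendrocytes 1 was higher and 2 were lower, with a median of -0.05. Without PDGFRa-GFP replicate 3 the counts were 5 and 7, where 2063 and 1050 of all genes without copies were called. The higher one was Enpp6 (0.86 ± 0.22, adjusted p = 0.0489), which lost its call in 5 of 6 fits. Of the lower ones Rap2a, a small GTPase, fell most (-1.64 ± 0.31, adjusted p = 0.0152), and lost its call in 2.

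Of the 12 higher genes that held, Rab7b, Plat and Pdgfc are given next as single genes, with no theme tested. Rab7b, a small GTPase of late endosomes, went from 10.25, 10.55 and 10.56 in PDGFRa-GFP cells to 12.29, 11.90 and 12.16 in NDRG1-eGFP cells (1.67 ± 0.18, adjusted p = 7.08e-04). Plat, tissue plasminogen activator, went from 12.91, 12.98 and 12.72 to 14.14, 13.73 and 13.79 (1.02 ± 0.16). Pdgfc, which encodes a ligand of the PDGF receptor alpha, went from 9.65, 9.63 and 9.97 to 11.14, 11.46 and 10.75 (1.36 ± 0.23). All 3 showed no overlap between groups. Rab21, a GTPase of early endosomes and integrin traffic, went the other way, from 12.50, 11.91 and 12.50 to 10.07, 9.83 and 9.27 (-2.58 ± 0.26). Of 48 Rab genes 2 were higher and 2 lower, close to the shares of 2.99% and 3.42% over all genes without copies. Without PDGFRa-GFP replicate 3 the counts were 15 and 4, where 2063 and 1050 of all genes without copies were called.

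The lower genes that held included a run of growth factor signalling genes. A list of 44 genes of insulin, PI3K and Ras signalling, drawn up after these values had been seen and therefore no independent evidence, had 38 measured members without copies. None was higher and 9 were lower, with a median log2 fold change of -0.34. Irs2, an adaptor of the insulin and IGF receptors, stood at 13.77, 13.62 and 14.06 in PDGFRa-GFP cells and at 12.31, 12.14 and 12.14 in NDRG1-eGFP cells (-1.62 ± 0.16, adjusted p = 4.04e-04). Igf1r, the IGF receptor known to promote myelination, stood at 11.29, 11.32 and 11.11 against 10.06, 9.94 and 10.31 (-1.14 ± 0.18, adjusted p = 0.00628). Akt1, the kinase downstream, stood at 12.03, 11.67 and 11.52 against 10.51, 10.01 and 9.79 (-1.63 ± 0.23). The groups were apart for each of these.

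The same list held Spred1, an inhibitor of Ras signalling, at 12.61, 11.70 and 12.29 against 10.05, 9.86 and 8.94 (-2.58 ± 0.33). Sos2, a Ras exchange factor, was lower too (-1.32 ± 0.23), as was the PI3K subunit gene Pik3ca (-1.08 ± 0.18), whose value with the length trend removed was -0.75 (adjusted p = 0.0611). The lower members thus included both activators and inhibitors. Mtor (-0.45) and Mapk3 (-0.59) did not pass the test. The number lower was 6 without each of PDGFRa-GFP replicate 1 and NDRG1-eGFP replicates 1, 2 and 3, 7 without PDGFRa-GFP replicate 2 and 16 without PDGFRa-GFP replicate 3. With the length trend removed it was 7. Among the dual-specificity phosphatases, some of which switch off MAP kinases, 5 of 17 were lower and none higher. The family's median was 0.26 and 11 members lay above 0. Of the lower ones Dusp3 (-1.09 ± 0.15, adjusted p = 0.00347) held. That count was 2 without PDGFRa-GFP replicate 1 or 2 or NDRG1-eGFP replicate 3, and 1 without NDRG1-eGFP replicate 2, and without PDGFRa-GFP replicate 3 it was 6, with 3 higher. Mapk8ip1, the JNK scaffold, was at 15.80, 15.83 and 15.71 against 14.22, 13.94 and 14.40 (-1.59 ± 0.15, adjusted p = 3.55e-04).

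**Figure D5:**
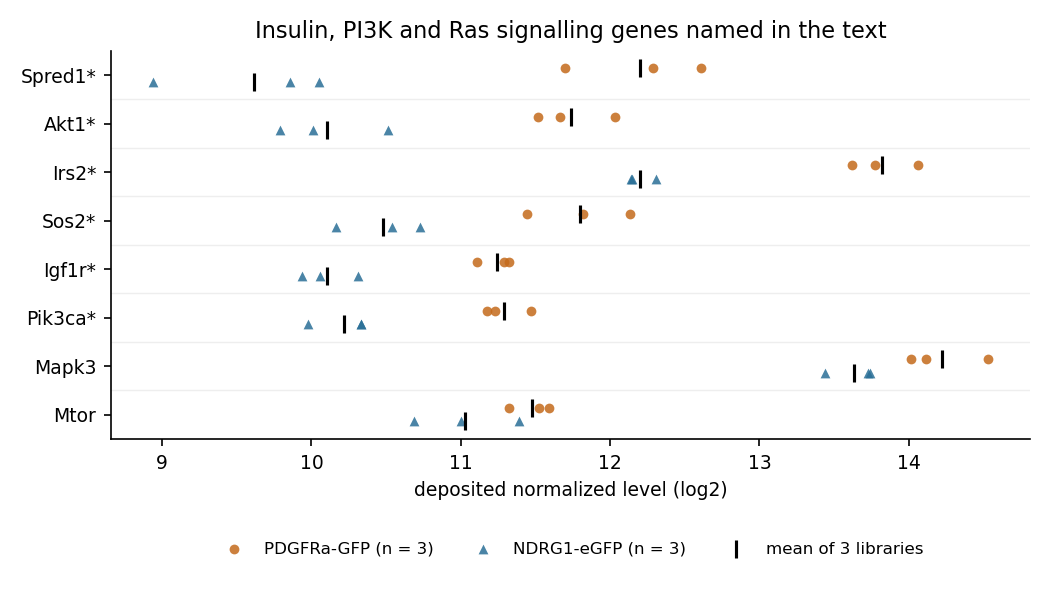
Deposited log2 level of the insulin, PI3K and Ras signalling genes named in the text in each library, PDGFRa-GFP as circles and NDRG1-eGFP as triangles, with black bars for group means, ordered by fold change. An asterisk marks an adjusted p under 0.05, and the list was drawn up after the values were seen. Irs2, Akt1, Igf1r and Spred1 are lower in all 3 NDRG1-eGFP libraries than in any PDGFRa-GFP library.

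The list of TGF-beta and BMP signalling genes had 2 of 29 members lower and none higher, with a median of -0.29. Over all genes without copies 3.42% were lower, so that the count says little of the list as a whole. Smad4, the shared mediator, was at 11.81, 11.25 and 11.91 in PDGFRa-GFP cells and at 10.08, 9.61 and 9.26 in NDRG1-eGFP cells (-2.01 ± 0.27, adjusted p = 0.00253). Smad7, the inhibitory Smad that oligodendrocytes use in differentiation, was at 13.40, 13.31 and 12.90 against 12.09, 11.58 and 11.62 (-1.44 ± 0.20, adjusted p = 0.00333). Both were lower in each of the 6 fits and with the length trend removed. Zfyve9, a membrane anchor that presents Smads to the TGF-beta receptor, was at 8.65, 8.64 and 8.90 against 5.89, 6.62 and 5.89 (-2.60 ± 0.36).

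Several single genes of cell contact and the cytoskeleton were lower and held. They were picked after their values were seen and stand for no tested group, and of the 37 semaphorins, plexins and ephrins 1 was lower. Cadm4, the adhesion protein through which myelinating glia hold axons, was at 13.62, 14.11 and 14.17 in PDGFRa-GFP cells and at 12.34, 11.45 and 11.46 in NDRG1-eGFP cells (-2.22 ± 0.27, adjusted p = 0.00144). Rtn4, which encodes the myelin inhibitor Nogo, was at 15.85, 15.88 and 15.62 against 15.01, 14.58 and 14.59 (-1.05 ± 0.16). Dpysl2, a collapsin response protein that binds tubulin, was at 15.74, 15.72 and 16.64 against 14.01, 13.75 and 13.55 (-2.26 ± 0.26). The groups did not overlap for these 3 genes. Cadm2, a further adhesion gene, was lower (-1.06 ± 0.15), as was the repulsive guidance gene Rgma (-1.32 ± 0.21). In the cytoskeleton, Actr2 of the Arp2/3 complex was at 12.05, 12.19 and 12.59 against 10.83, 10.96 and 11.02 (-1.34 ± 0.18), and the cofilin phosphatase gene Ssh3 at 8.92, 9.13 and 7.90 against 5.26, 4.76 and 6.20 (-3.24 ± 0.52).

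Ion transport genes moved in both directions. Of 14 glial transporters 2 were higher and 3 lower, and none was higher without PDGFRa-GFP replicate 1 or 2 or NDRG1-eGFP replicate 1 or 3. Slc4a4, a sodium bicarbonate cotransporter, was at 9.02, 8.63 and 8.30 in PDGFRa-GFP cells and at 4.40, 5.14 and 4.45 in NDRG1-eGFP cells (-3.99 ± 0.44, adjusted p = 8.79e-04). Slc4a4 was also on the list of 20 astrocyte markers, the only one of them called, and those summed to 1280 to 1420 ppm in PDGFRa-GFP and 939 to 1170 in NDRG1-eGFP libraries. The part of astrocyte RNA in this result was not tested. Hcn2, the pacemaker channel gene, was at 15.96, 15.50 and 15.56 against 14.14, 13.14 and 12.46 (-2.42 ± 0.37, adjusted p = 0.00546), and Slc12a2, the sodium potassium chloride cotransporter, at 16.35, 15.82 and 15.94 against 15.01, 15.01 and 14.51 (-1.19 ± 0.20). All 3 held, and no group overlapped. Mitochondrial carriers, a list chosen after seeing the data, had 5 of 32 members higher, but none without PDGFRa-GFP replicate 1 or 2, or NDRG1-eGFP replicate 1 or 3, and 12 without PDGFRa-GFP replicate 3.

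Chromatin enzymes had 6 of 40 members without copies lower and none higher, beside 3.42% and 2.99% of all genes without copies. Prmt1, an arginine methyltransferase needed for oligodendrocyte development, was at 12.16, 12.11 and 12.33 in PDGFRa-GFP cells and at 10.68, 11.17 and 11.03 in NDRG1-eGFP cells (-1.24 ± 0.18, adjusted p = 0.00384). Hdac11, a histone deacetylase of oligodendrocytes, was at 13.95, 14.12 and 14.01 against 13.20, 12.81 and 13.28 (-0.93 ± 0.16, adjusted p = 0.0103), and Chd8, a remodeller that acts in oligodendrocyte progenitors, at 11.23, 11.21 and 11.27 against 10.18, 10.13 and 10.26 (-1.05 ± 0.16). These 3 held. The count was 3 without PDGFRa-GFP replicate 1 or NDRG1-eGFP replicate 1 or 3. It was 15 without PDGFRa-GFP replicate 3, where 1050 of all genes without copies were lower. Removing the length trend gave 4 lower and 2 higher. Of 16 histone demethylases 4 were lower, none of which held, and 2 with the length trend removed. Thra, the thyroid hormone receptor that times oligodendrocyte differentiation, was at 13.10, 13.29 and 13.17 against a range of 11.89 to 12.15 (-1.18 ± 0.14, adjusted p = 0.00152).

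Genes of ubiquitin transfer were lower in 4 of 21 conjugating enzymes and higher in 1, beside 3.42% and 2.99% of all genes without copies. Ube2s, which extends ubiquitin chains in mitosis, was at 9.13, 9.07 and 9.82 in PDGFRa-GFP cells and at 4.22, 4.09 and 5.56 in NDRG1-eGFP cells (-4.72 ± 0.50, adjusted p = 7.08e-04), with 0.311% of its windows copied. Ube2d2a, with 4.63% of its windows copied, was lower by less (-1.71 ± 0.20). A fit without every gene that had any copied window called no conjugating enzyme. Ube2s and Ube2d2a were themselves left out of that fit, so it could not test them. In the 21 other settings that tested Ube2s, its call was lost in 0. Among the 12 largest falls was also Lars2, the mitochondrial leucyl-tRNA synthetase gene, at 18.60, 19.28 and 20.13 against 13.92, 13.38 and 14.64 (-5.35 ± 0.41, adjusted p = 9.79e-05), with 0.196% of its windows copied. It was the 1 lower of 34 tRNA synthetase genes without copies, and that call held, while the number higher, 2, ranged from 0 to 10 over the leave-one-out fits. The median level of those 34 genes was 10.97 to 11.37 over the 6 libraries, far under that of Lars2. Copies were sought in annotated transcripts only, and whether reads from elsewhere entered the Lars2 values was not tested. The remaining falls among these 12 that held were Hebp1, a heme-binding protein gene (-2.70 ± 0.25), Gna12, a G protein subunit (-2.53 ± 0.32), and Tmem132d (-2.11 ± 0.28). Ddit4, a stress-induced inhibitor of mTOR, fell from 12.80, 13.07 and 11.72 to 9.46, 10.25 and 10.88 (-2.34 ± 0.42, adjusted p = 0.0128) and lost its call in 1 of the 6 fits.

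Immune genes were among the largest rises by the naming rule. H2-Ab1, of MHC class II, was at 6.45, 5.56 and 6.92 in PDGFRa-GFP cells and at 10.57, 8.30 and 8.31 in NDRG1-eGFP cells (2.75 ± 0.65, adjusted p = 0.0363), and Cd74, its invariant chain, at 8.50, 8.28 and 8.11 against 10.32, 9.68 and 9.11 (1.41 ± 0.33, adjusted p = 0.0336). They were 2 of 11 antigen presentation genes without copies, and B2m, of class I, did not change past the test (-0.07). The H2-Ab1 call was lost in 5 of 6 fits and that of Cd74 in 4 and with the length trend removed (1.12, adjusted p = 0.0904), and none of the list was higher without PDGFRa-GFP replicate 1 or 2 or NDRG1-eGFP replicate 1 or 2, and 6 were without PDGFRa-GFP replicate 3. Beside this, 19 microglial markers summed to 83.7 to 137 ppm in PDGFRa-GFP and 135 to 212 in NDRG1-eGFP libraries. None of them was called, 18 had a positive log2 fold change and their median was 0.81. In sorted pools more cells of a type and more RNA per cell cannot be told apart, and the part of microglial RNA in the immune rises was not tested.

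The remaining rises by the rule were Il12a, an interleukin subunit (1.51 ± 0.28), the orphan receptors Gpr176 (1.53 ± 0.38) and Gpr61 (1.39 ± 0.25), St8sia5, a ganglioside sialyltransferase (1.44 ± 0.26), Ly6g6e (1.44 ± 0.29), Top1mt, a mitochondrial topoisomerase (1.37 ± 0.30), Ucp2, a mitochondrial carrier (1.37 ± 0.31), and Nap1l3 (1.36 ± 0.30). Each was lost in 2 to 4 of the 6 fits, and Gpr176, Ly6g6e, Top1mt and Nap1l3 also with the length trend removed. The lists of endothelial, pericyte, blood and Schwann cell markers had no called member without copies. Col6a2 was the 1 higher of 18 fibroblast-like markers (1.29 ± 0.28, adjusted p = 0.0266, lost in 4 of 6 fits), and these summed to 157 to 304 and 124 to 277 ppm. Ttr, the choroid plexus transthyretin, was at 15.58 in NDRG1-eGFP replicate 1 and from 9.48 to 10.15 in the other 5 libraries. Foxj1, a ciliary regulator, was the 1 lower of 13 ependymal markers, of which the other 12 had positive log2 fold changes and none was higher past the test. The median of all 13 was 1.73, and 0.3 without NDRG1-eGFP replicate 1. In that library they summed to 886 ppm, against 39.6 to 56.5 in the other 5. Foxj1 itself was at -0.99 ± 0.18 (adjusted p = 0.0133, lost in 3 of 6 fits).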

How the data were processed

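Members and gene lists were chosen with earlier results of these data known. The authors deposited, for each library, normalized log2 values by gene symbol, per the file headers. Per the submitters' processing notes, BWA, DESeq2 1.2.5 and the mm10 build were used, with no role given for each, and counting and normalization are not given in the sources used here. At 11106 of 11315 ranks the sorted values of all 9 libraries lay within 0.1.

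limma-trend (limma 3.58.1, R 4.3.3) was fitted to the deposited log2 values of the 6 libraries, two-sided, with Benjamini-Hochberg adjustment over 11314 genes, after a filter asking for 1 or more in 3 or more libraries. On simulated data over 11315 genes with 200 changed, it recovered 17% at a log2 change of 1 and 70% at 2, with 2 false calls. The simulated noise was independent between genes and held no differences shared across a library, no copies and no length trend. Its false calls therefore do not give the error rate of the real calls. Copies and lengths came from GENCODE M21 (11272 symbols matched, and the other 43 counted as without copies). In 17 rows the symbol had become a date, and these are not named. A few genes are not reported here.

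The naming rule took the reporters, Y-linked genes, the 12 highest and 12 lowest called genes without copies whose groups did not overlap and that reached 10 ppm, up to 5 each way with copies (4 higher met it), and up to 4 members per list. Predicted genes were passed over. Alternatives changed the libraries, replicate block, recentring, length trend, genes with copies, filter, added constant, moderation, weights and thresholds, and 3 were added after seeing the data.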

Additional observations from a re-analysis of the deposited data

How the results depend on the processing

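No named gene that was called reversed its direction in any setting. The counts of genes higher and lower were 1207 and 1176 with all 9 libraries in the fit (1185 and 722 without copies), 155 and 866 after median-ratio recentring (147 higher without copies), and 141 and 753 with the length trend removed (132 higher without copies). Refitting without the shared genes gave 120 and 221, and 42 and 212 with the length trend also removed. Array quality weights gave 2627 and 1795 (2577 and 1307 without copies). An adjusted p under 0.01 gave 24 and 333 (18 and 97), and one under 0.05 with a log2 fold change of 1 or more in size gave 69 and 530 (61 and 212). Leaving out 1 library gave 30 to 2104 higher and 365 to 1498 lower, and without copies 24 to 2063 higher and 113 to 1050 lower. The cause of these shifts was not tested. Settings chosen after seeing the data gave 2221 and 1742 without NDRG1-eGFP 3 and PDGFRa-GFP 3 (2169 and 1299), 88 and 127 without genes that had any shared window, and 576 and 1212 with the length trend removed and PDGFRa-GFP 3 left out (561 and 691).

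Replicate numbers gave no sign of pairing: the correlations of deviations between libraries with the same number were -0.05, -0.23 and -0.12. Between libraries with different numbers they were -0.05 to 0.23. Deviations from a mean of 3 constrain each other, so these values cannot exclude pairing. A fit with the replicate block gave 28 higher and 404 lower (22 and 148 without copies), and with the length trend also removed 27 higher (21 and 175 without copies). Of 181 called genes examined singly, 84 kept their call in every leave-one-out fit and 68 in all settings. An unadjusted p under 0.05 was reached by 3250 genes. Depth is unknown, and values under 2, reached by 73 to 114 genes per library, limit what can be said of low genes.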

Other observations

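Several mast cell genes lay at the bottom of the scale in PDGFRa-GFP libraries and well above it in NDRG1-eGFP libraries. Of 5 measured without copies, 2 were higher and 1 lower, beside 2.99% and 3.42% of all genes without copies. The 2 with copies were higher, beside 1.0% of all genes with copies. These mast cell genes lay outside the naming rule and were singled out after their values were seen, so the counts are no independent evidence. Tpsb2, a mast cell tryptase, was listed at 0.29, 0.33 and 1.80 in PDGFRa-GFP replicates 1, 2 and 3 and at 9.29, 8.07 and 7.51 in NDRG1-eGFP replicates 1, 2 and 3 (limma adjusted p = 0.00166). Cpa3, the mast cell carboxypeptidase, was at 1.86, 0.33 and 1.80 against 7.64, 8.01 and 6.11 (adjusted p = 0.00929), and lost its call without NDRG1-eGFP replicate 1 or 2. The chymase genes Cma1 (0.29, 0.33 and 1.80 against 7.11, 8.38 and 6.39) and Mcpt4 (0.95, 0.33 and 1.80 against 6.47, 7.52 and 4.81) followed, with 5.4% and 5.5% of their windows copied. Kit, the receptor mast cells share with many other cells, was lower, at 10.54, 10.53 and 10.11 against 8.68, 9.20 and 9.16 (adjusted p = 0.00998). With Kit included, the 5 genes without copies summed to 19.7 to 24.8 ppm in PDGFRa-GFP and 14.8 to 24.3 ppm in NDRG1-eGFP libraries.

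Transcription factors of forebrain interneurons showed the opposite order, and were also chosen after their values were seen. Sp9 was at 5.45, 7.19 and 5.54 in PDGFRa-GFP cells and at 0.35, 1.17 and 0.46 in NDRG1-eGFP cells (adjusted p = 0.0356). Dlx1 was at 6.33, 7.57 and 6.14 against 3.47, 4.41 and 3.97 (adjusted p = 0.0464). Leaving out 1 library at a time removed each of these calls in 5 of 6 cases. Dlx2 was not called (6.03, 7.43 and 6.14 against 4.57, 5.79 and 6.05), and the 10 neuron markers summed to 95.6 to 127 ppm of the summed linear values in PDGFRa-GFP and 103 to 146 in NDRG1-eGFP libraries, with none called.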
